A study of Mus musculus with 4 samples.

Results

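A set of 10 NF-kB genes was followed across the cells of the mouse glomerulus: 4 subunits (Nfkb1, Nfkb2, Rel and Relb) and 6 genes that inhibit, modulate or are induced by the pathway (Nfkbia, Nfkbiz, Tnfaip3, Tnfaip2, Birc3 and Bcl3). The 10 members were taken by symbol from the 52636 genes in the count tables, each symbol matched 1 gene ID, and their levels in aged glomeruli were compared with those in young glomeruli. The members and the gene lists used below were chosen with earlier results of these data known, so their shares beside all genes are descriptions. Glomeruli, the filtering capillary tufts of the kidney, were isolated with magnetic beads from perfused kidneys and dissociated with enzymes. Single-cell 3′ RNA sequencing gave 2 libraries labelled young and 2 labelled aged. All 4 are labelled as untreated. The labels give neither an age in months, a strain, a sex nor the number of animals behind a library, so the p-values measure the spread between libraries, which may be partly technical.

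NF-kB transcription factors are dimers that IkB proteins hold in the cytoplasm until an IkB kinase marks the inhibitor for degradation. The freed dimers then switch on chemokine, adhesion and survival genes, and also the genes of their own inhibitors, so that inhibitor transcripts are widely read as part of the response. Nfkb1 and Nfkb2 encode the precursors of p50 and p52, Rel and Relb encode subunits with an activation domain, Nfkbia encodes IkBalpha, and Nfkbiz and Bcl3 encode nuclear IkB proteins. Tnfaip3 encodes A20, a ubiquitin-editing enzyme that restrains the pathway, Birc3 encodes the ubiquitin ligase cIAP2, and Tnfaip2 is a TNF-induced gene.

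On GRCm38 (GENCODE vM21) the subunit genes lie as follows: Nfkb1 at chr3:135584655-135691547 (minus), Nfkb2 at chr19:46304320-46312385 (plus), Rel at chr11:23736847-23770970 (minus) and Relb at chr7:19606217-19629438 (minus). The IkB genes are Nfkbia at chr12:55489410-55492647 (minus), Nfkbiz at chr16:55811375-55838899 (minus) and Bcl3 at chr7:19808462-19822770 (minus), and the others Tnfaip3 at chr10:19000910-19015657 (minus), Tnfaip2 at chr12:111442469-111455018 (plus) and Birc3 at chr9:7848699-7873186 (minus). An annotated gene overlaps Nfkb1 on the same strand (Gm43430), so the reads of Nfkb1 could be shared with that neighbour. On the opposite strand, annotated genes overlap Nfkb2 (Psd and AC114539.1), Tnfaip2 (Gm40578) and Bcl3 (Gm16175 and Gm16174).

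Promoter sequence was found for 7 of the 10 members in RefSeq promoter windows on GRCm38.p6, from 250 bases before to 50 bases after each start. A match to the kB consensus motif on either strand was present in 5 of these 7 (Nfkb2, Rel, Nfkbia, Tnfaip3 and Bcl3). Of all 26994 genes in the same table, 5.13% had such a match in any promoter. The stretches below are shown because they carry the matches upstream of the start in an inhibitor called in podocytes and endothelial cells (Nfkbia), in a second inhibitor called in podocytes and mesangial cells (Tnfaip3), and in 2 subunits; capitals mark the matched letters, and a run of 11 capitals is 2 overlapping matches. Positions are chr12:55492648-55492897 (minus strand) for Nfkbia, chr10:19015516-19015545 (minus) for Tnfaip3, chr11:23771042-23771071 (minus) for Rel and chr19:46304688-46304717 (plus) for Nfkb2.
Nfkbia: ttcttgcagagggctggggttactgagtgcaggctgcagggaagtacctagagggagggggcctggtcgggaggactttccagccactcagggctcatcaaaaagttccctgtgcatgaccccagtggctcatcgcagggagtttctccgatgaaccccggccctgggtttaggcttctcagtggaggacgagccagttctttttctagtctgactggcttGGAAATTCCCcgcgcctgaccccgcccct
Tnfaip3: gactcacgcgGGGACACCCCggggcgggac
Rel: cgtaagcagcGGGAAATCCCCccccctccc
Nfkb2: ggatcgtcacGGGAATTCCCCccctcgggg

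In Nfkbia the match lies 29 to 20 bases before the start, and in Tnfaip3 a second match lies 12 to 3 bases before it. The Bcl3 match lies 3 to 12 bases after the start. Windows of Birc3 and Tnfaip2 held no match. A match is a description of the sequence and was not tested for binding.

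The 4 libraries held 5532 and 9649 barcodes (young replicates 1 and 2) and 10621 and 7521 barcodes (aged replicates 1 and 2), with between 18457791 and 42046542 unique molecular identifiers (UMIs, the count of distinct captured transcripts) per library. Young replicate 2 stood apart: 51.7% of its kept barcodes fell in clusters carrying markers of several cell types, against 0.441% to 1.69% in the other 3 libraries, and these barcodes were left out. Single mixed cells of named clusters and clusters of low marker level were left out too. In all, 63.0% of its kept barcodes had no class, against 1.85% to 4.35% in the other 3 libraries. Pairs of libraries shared between 5 and 26 of the 5256 to 9985 barcodes left by the filters. Cells were named from marker genes. The classes used most were podocytes (582 to 1752 cells per library), endothelial cells (1378 to 6024) and mesangial cells (194 to 706). UMIs were summed per class and library, and aged was compared with young sums. Levels are counts per 1000000 (CPM) of a class sum after TMM scaling unless called plain CPM, and "rose" or "fell" means a Benjamini-Hochberg adjusted p under 0.05 in edgeR's quasi-likelihood test over all genes of the class.

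In podocytes, the cells that wrap the capillaries and carry the slit diaphragm, 7 of 10 members rose in aged glomeruli and none fell. Of the 10867 genes tested in podocytes, 3.90% rose and 1.93% fell. The 7 were the inhibitors and modulators Nfkbia, Tnfaip3, Birc3 and Bcl3, the TNF-induced Tnfaip2 and the subunits Rel and Relb. The median log2 fold change over the 10 members was 0.70, beside 0.003 over all genes.

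**Figure D1:**
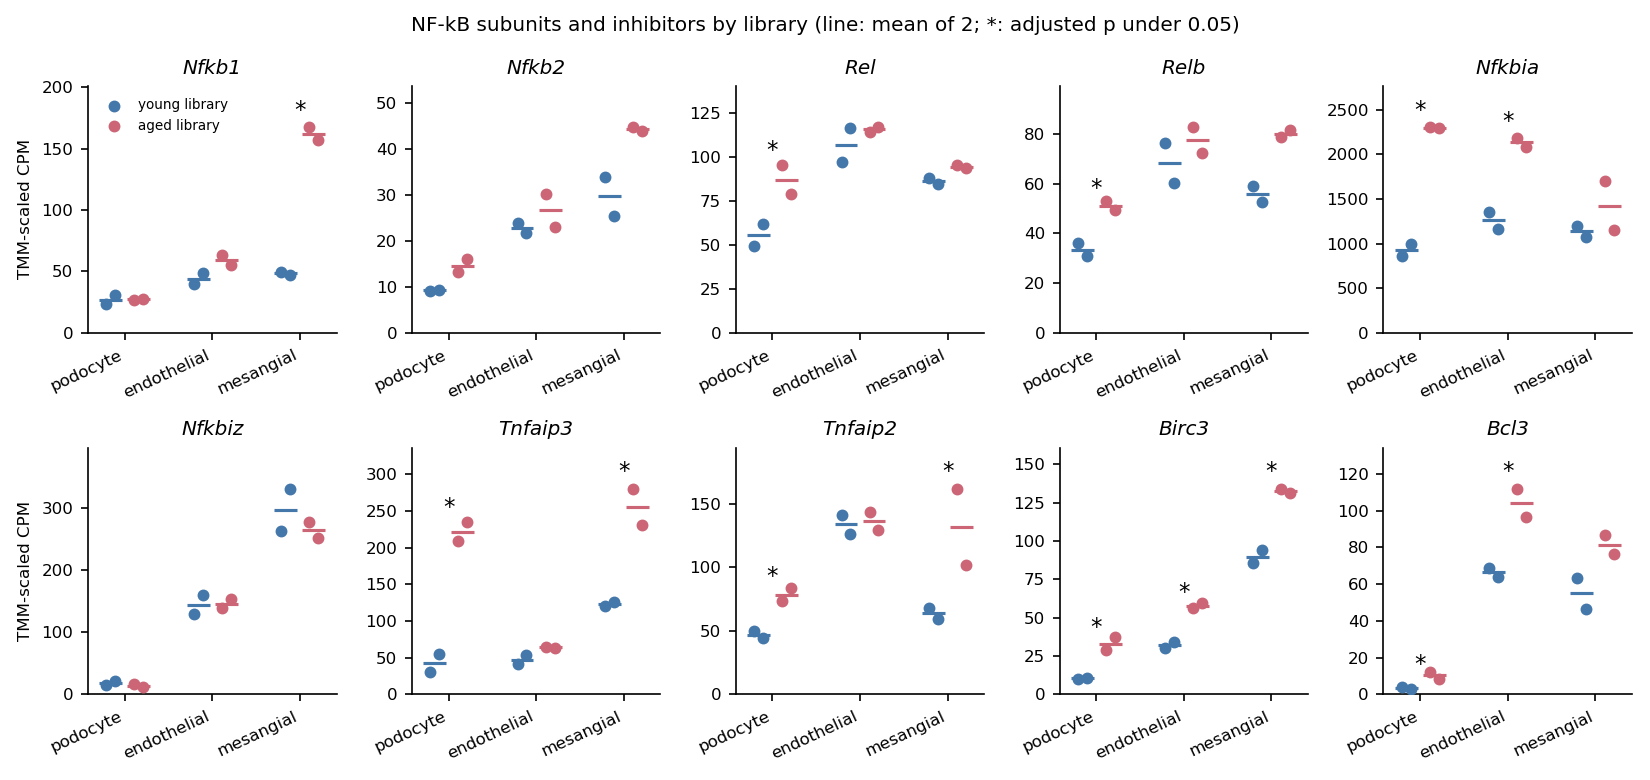
TMM-scaled CPM of each member (y axis, own scale per gene) in the podocyte, endothelial and mesangial sums of the 4 libraries; points are libraries, lines the mean of 2, and asterisks mark adjusted p under 0.05. In podocytes the 2 aged points lie above both young points for 8 of 10 members, and Nfkb1 separates by age mainly in mesangial cells, where the aged sums sit at 157 and 168 CPM.

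Tnfaip3 had the largest log2 fold change of the members in podocytes. It stood at 30.2 and 54.6 CPM in young replicates 1 and 2 and at 209 and 235 CPM in aged replicates 1 and 2. The aged sums were 5.47-fold higher (log2 fold change 2.45 ± 0.18 SE, adjusted p = 3.81e-11), and the groups did not overlap. Nfkbia was at 860.1 and 997 CPM in the young podocyte sums and at 2305 and 2296 CPM in the aged ones. That is a 2.48-fold rise (log2 1.31 ± 0.15 SE, adjusted p = 1.83e-07), with both aged libraries far above both young ones. Birc3 went from 9.97 and 10.8 CPM to 28.7 and 37.3 CPM (log2 1.67 ± 0.20 SE, adjusted p = 6.47e-07). Bcl3, whose product binds p50 and p52 dimers in the nucleus, was scarce in podocytes: 3.80 and 2.71 CPM in young and 12.3 and 8.35 CPM in aged sums. It rose by a log2 fold change of 1.60 ± 0.32 SE (adjusted p = 0.00119). Both aged sums lay above both young sums for all 4, as they did for 8 of the 10 members and for 23.6% of the genes tested in podocytes.

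The smaller rises were those of Tnfaip2, Rel and Relb. Tnfaip2 was at 49.8 and 44.3 CPM in young and 73.7 and 83.3 CPM in aged podocytes (log2 0.72 ± 0.14 SE, adjusted p = 9.47e-04). Rel was at 49.2 and 61.8 CPM in young and at 95.5 and 79.0 CPM in aged sums (log2 0.68 ± 0.15 SE, adjusted p = 0.0032). Relb was at 36.1 and 30.8 CPM in young and at 52.9 and 49.3 CPM in aged sums (log2 0.59 ± 0.15 SE, adjusted p = 0.0121). Aged sums exceeded young sums in all 3 genes. Nfkb2 was also higher in both aged sums (13.2 and 16.1 against 9.18 and 9.34 CPM) but did not pass the test (adjusted p = 0.0941). Nfkb1 (23.2, 31.1, 26.7 and 27.8 CPM in young 1, young 2, aged 1 and aged 2) and Nfkbiz (14.7, 21.4, 16.1 and 12.4 CPM) overlapped between the groups. Without aged replicate 1 the number that rose was 4: Rel, Relb and Bcl3 no longer passed (adjusted p = 0.321, 0.301 and 0.141). Without aged replicate 2 it was 5, with Relb at 0.117 and Tnfaip2 at 0.116, while without young replicate 2 it stayed 7. With barcodes of mixed clusters kept it was 2 (Nfkbia and Tnfaip3), and the log2 fold change of Bcl3 was 0.35 (adjusted p = 0.826).

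**Figure D2:**
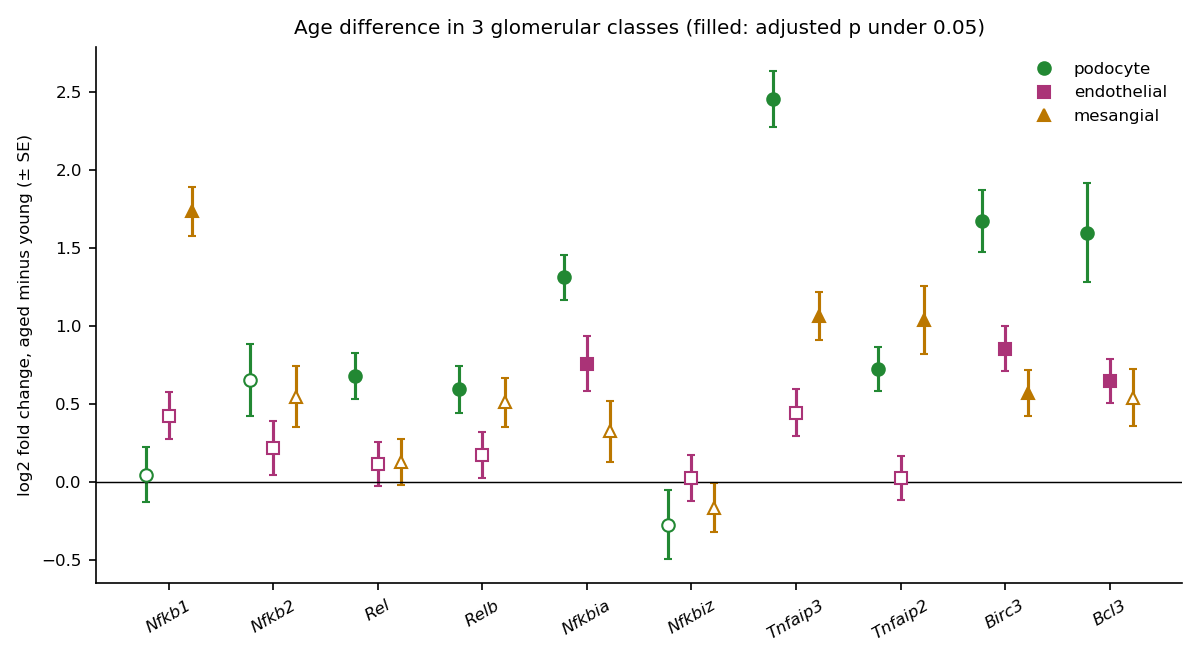
Log2 fold change of aged over young sums (y axis, ± SE) for the 10 members in podocytes (circles), endothelial cells (squares) and mesangial cells (triangles), filled where adjusted p is under 0.05. Tnfaip3 is highest in podocytes at 2.45, and Nfkb1 stands at 1.73 in mesangial cells but at 0.05 in podocytes.

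In endothelial cells, which line the capillaries and vessels of the tuft, 3 of 10 members rose and none fell, against 3.80% of 13146 genes that rose and 1.93% that fell. These were Nfkbia, Birc3 and Bcl3. The members' median log2 fold change was 0.32, beside -0.006 over all genes. Nfkbia was at 1359 and 1167 CPM in young and at 2188 and 2081 CPM in aged sums. Its rise was 1.69-fold (log2 0.76 ± 0.18 SE, adjusted p = 0.0137). Birc3 was at 30.1 and 34.2 CPM in young and at 56.2 and 59.5 CPM in aged sums (log2 0.86 ± 0.15 SE, adjusted p = 0.00146). Bcl3 was at 69.0 and 64.2 CPM in young and at 112 and 96.8 CPM in aged sums (log2 0.65 ± 0.14 SE, adjusted p = 0.0092). None of the 3 overlapped between the groups, and the aged sums lay above the young ones for 5 of 10 members and for 24.5% of genes.

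Nfkb1 (39.9 and 48.6 against 63.2 and 54.9 CPM) and Tnfaip3 (41.2 and 53.7 against 64.3 and 63.8 CPM) were also higher in both aged endothelial sums without passing the test (adjusted p = 0.119 and 0.101). The other 5 members overlapped, with log2 fold changes from 0.02 (Nfkbiz) to 0.22 (Nfkb2). Leaving out either young library ended all 3 calls, with Nfkbia at adjusted p = 0.332 and 0.355, Birc3 at 0.344 and 0.332, and Bcl3 at 0.345 and 0.4 (without young replicate 1 and 2). In those 2 fits no gene at all was called in endothelial cells (0 of the genes tested). Without aged replicate 1, Nfkbia was at 0.187 and Bcl3 at 0.127, and without aged replicate 2 Nfkbia was at 0.0902.

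Endothelial cells fell into 8 clusters with at least 20 cells in every library, and a cluster led by Sele and Il6, an endothelial leukocyte adhesion molecule and a cytokine, held 117 and 95 young but 1332 and 895 aged cells. In plain CPM, Nfkbia was higher in both aged than in both young libraries in 8 of the 8 clusters, Bcl3 in 6 and Birc3 in 5. Between 14.4% and 18.7% of genes with at least 20 UMIs did so within a cluster (16.2%, 17.2%, 18.7%, 16.3%, 16.8%, 14.7%, 14.4% and 16.5% in clusters 0, 1, 3, 4, 7, 10, 12 and 29). Nfkb1, Tnfaip3 and Tnfaip2 were higher in both aged libraries in 3 clusters, Nfkb2 and Relb in 1, and Rel and Nfkbiz in 0. Both aged libraries lay below both young ones in 3 clusters for Rel and Nfkbiz and in 2 for Relb and Tnfaip2. The share of all genes that lay below in this way was not computed, so these counts stand without a background. The clusters come from the same 4 libraries and are not independent. In the Sele and Il6 cluster Nfkbia was at 2158 and 1747 CPM in young and 2586 and 2697 CPM in aged cells. In cluster 1, led by Ier5l and Id1, it was at 1193 and 1067 CPM in young and 1833 and 1478 CPM in aged cells. Nfkbia thus stood higher in the Sele and Il6 cluster than in cluster 1 in each of the 4 libraries. Other clusters came closer. Cluster 4, led by Esm1, was at 2573 CPM in aged replicate 1. Cluster 12, led by Calca, was at 1722 and 1538 CPM in young cells. With the Sele and Il6 cluster left out, a choice made after seeing the data, the number of members that rose was again 3. 

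**Figure D3:**
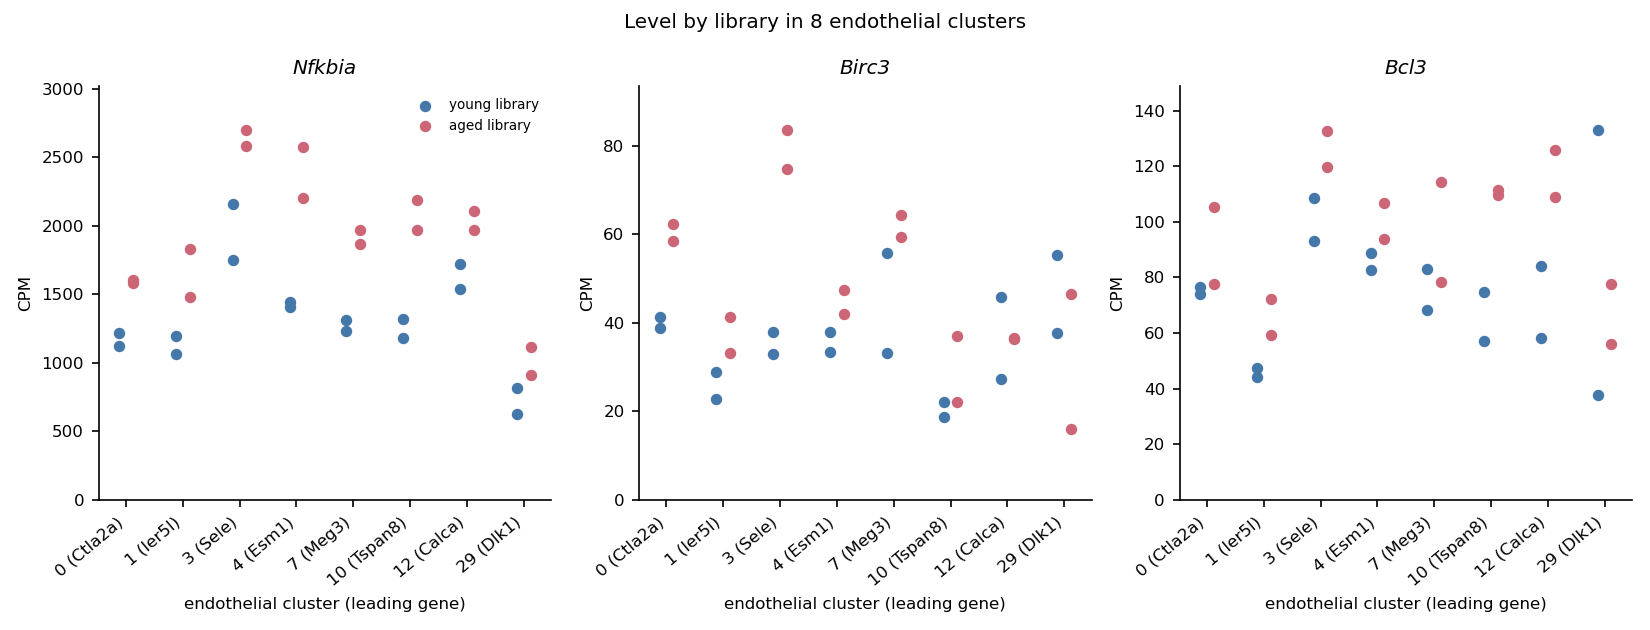
Plain CPM (y axis) of Nfkbia, Birc3 and Bcl3 in 8 endothelial clusters (x axis, with each cluster's leading gene); each point is a library, young left and aged right. For Nfkbia the aged points lie above the young points in 8 of 8 clusters, for Bcl3 in 6 and for Birc3 in 5.

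In mesangial cells, the contractile support cells between the capillaries, 4 of 10 members rose: Nfkb1, Tnfaip3, Tnfaip2 and Birc3. None fell, and 4.24% of the 11100 genes tested rose and 2.44% fell. The members' median log2 fold change was 0.54, beside -0.014 over all genes. Nfkb1 was at 49.9 and 47.3 CPM in young and at 168 and 157 CPM in aged sums. This was a 3.33-fold rise (log2 1.73 ± 0.16 SE, adjusted p = 1.15e-04) and the only one of these 3 classes in which Nfkb1 passed the test. Tnfaip3 was at 119.7 and 125 CPM in young and at 280.2 and 231 CPM in aged sums (log2 1.06 ± 0.15 SE, adjusted p = 0.00308). Tnfaip2 was at 68.0 and 59.3 CPM in young and at 162 and 102 CPM in aged sums, the widest gap between 2 aged libraries among the 4 genes (log2 1.04 ± 0.22 SE, adjusted p = 0.0189). Birc3 was at 85.7 and 93.9 CPM in young and at 134 and 131 CPM in aged sums (log2 0.57 ± 0.15 SE, adjusted p = 0.0438).

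A further 4 members, Nfkb2, Rel, Relb and Bcl3, were higher in both aged mesangial sums without passing the test (adjusted p = 0.128, 0.666, 0.0827 and 0.106). Both aged sums lay above both young sums for 8 of 10 members and for 26.6% of all genes tested in mesangial cells. Nfkbia was at 1198 and 1076 CPM in young and at 1704 and 1147 CPM in aged sums and overlapped (adjusted p = 0.369). Without aged replicate 2 it passed, at a log2 fold change of 0.60 and adjusted p = 9.95e-04. Leaving out either young library left only Nfkb1 called, with Tnfaip3 at 0.133 and 0.0997, Tnfaip2 at 0.19 and 0.246 and Birc3 at 0.326 and 0.257 (without young replicate 1 and 2).

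The young and aged mesangial sums were made largely of different clusters. Cluster 14, led by Gucy1a3, Sfrp2 and Ptn, held 285 and 180 of the young but 32 and 18 of the aged mesangial cells. Cluster 9, led by Cxcl13, Serpine2 and Cxcl1, held 15 and 14 of the young but 674 and 539 of the aged cells. Within cluster 14, Nfkb1 was at 52.7 and 52.1 plain CPM in young and at 85.2 and 143 in aged cells, the aged values resting on 11 UMIs each. Tnfaip3 within cluster 14 ran the other way, at 124 and 130 plain CPM in young and 101 and 39.0 in aged cells (13 and 3 UMIs). In cluster 9, Nfkb1 had 1 and 0 UMIs in the young cells and 797 and 953 UMIs in the aged ones, at 158 and 153 plain CPM. In tests of either cluster alone, chosen after seeing the data, no member rose, and Nfkbiz fell in cluster 14 (log2 -1.25, adjusted p = 0.0109).

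Whether the age difference itself depended on the cell class was tested in 1 model over the 12 podocyte, endothelial and mesangial sums. It differed for 5 of 10 members (Nfkb1, Nfkbia, Tnfaip3, Tnfaip2 and Birc3), against 6.10% of 13598 genes. Between pairs of classes, 2.49% (endothelial and podocyte), 4.28% (mesangial and podocyte) and 1.98% (mesangial and endothelial) of genes differed. For Tnfaip3 the podocyte difference exceeded the endothelial one by a log2 value of 1.98 (endothelial minus podocyte -1.98 ± 0.20 SE, adjusted p = 2.01e-05) and the mesangial one by 1.36 (mesangial minus podocyte -1.36 ± 0.20 SE, adjusted p = 5.19e-04). For Nfkb1 the mesangial difference exceeded the podocyte one by 1.74 ± 0.20 SE (adjusted p = 3.97e-05) and the endothelial one by 1.31 ± 0.18 SE (adjusted p = 5.27e-04). Nfkbia and Birc3 differed between mesangial cells and podocytes (mesangial minus podocyte -0.94 ± 0.18 SE and -1.02 ± 0.20 SE, adjusted p = 0.00485 and 0.00644). Tnfaip2 differed between mesangial and endothelial cells (1.02 ± 0.21 SE, adjusted p = 0.0134). For Nfkb2, Rel, Relb, Nfkbiz and Bcl3 the test gave adjusted p = 0.491, 0.09, 0.194, 0.513 and 0.0856. Without young replicate 2 the number that differed was 3, without young replicate 1 it was 2, and with barcodes of mixed clusters kept it was 0.

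Outside these 3 classes the members had less depth behind them. Clusters 19, 20, 21, 23 and 24, led by Igfbp2, Tagln and Spp1, were selected by markers of the epithelium of Bowman's capsule (Cldn1, Pax8 and Ncam1 among them) but are given by number because the smooth muscle marker Tagln stood among the 10 leading genes of each except cluster 24. They held 32 to 61 cells per library. Of the 8 members that passed the count filter there, 1 fell and none rose, beside 2.81% of 4549 genes that fell and 2.81% that rose. This was Nfkbiz, at 280.3 and 401 CPM in young and 165 and 219 CPM in aged sums (log2 -0.81 ± 0.24 SE, adjusted p = 0.0413). Without young replicate 2 it was at adjusted p = 0.474, and without aged replicate 1 at 0.282. Summed dissociation genes were also lower in aged sums there, with 10 of 16 called lower, and the part of this in the Nfkbiz difference was not tested.

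No member was called by edgeR in smooth muscle and renin cells (5 members tested), B cells (6), T and NK cells (5) or monocytes and dendritic cells (10), and DESeq2 also called none. The shares of all genes called in either direction at an adjusted p under 0.05 in edgeR in these classes were 1.79%, 0%, 0.0629% and 2.09%. At an unadjusted p under 0.05 the members numbered 1, 1, 3 and 2. No share of all genes at that looser level was computed, so these numbers cannot be read against a background. These classes held 30 to 370 cells per library, and a p that misses the threshold does not show that levels were alike. Bcl3 in smooth muscle and renin cells stood at 13.8 and 13.5 CPM in young and 54.9 and 67.1 CPM in aged sums (4.24-fold, adjusted p = 0.192). Nfkb1 in T and NK cells stood at 36.9 and 47.2 CPM in young and 137 and 129 CPM in aged sums (3.02-fold, adjusted p = 0.52). Both comparisons rest on few UMIs, as the class sums held 137575 to 248070 UMIs in smooth muscle and renin cells. Those of T and NK cells held 70082 to 191164. Bcl3 in the first class and Nfkb1 in the second passed the count filter only through their aged sums. A rise was thus the only direction these folds could show. Tnfaip3 in T and NK cells was at 480 and 460 CPM in young and 782 and 726 CPM in aged sums (adjusted p = 0.514). Rel ran the other way there, at 258 and 354 CPM in young and 235 and 117 CPM in aged sums (adjusted p = 0.52). In monocytes and dendritic cells Tnfaip3 stood at 56.5 and 18.9 CPM in young and 67.1 and 74.2 CPM in aged sums (adjusted p = 0.296). Rel in B cells was at 2234 and 2207 CPM in young and 1765 and 1359 CPM in aged sums (adjusted p = 0.352).

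**Figure D4:**
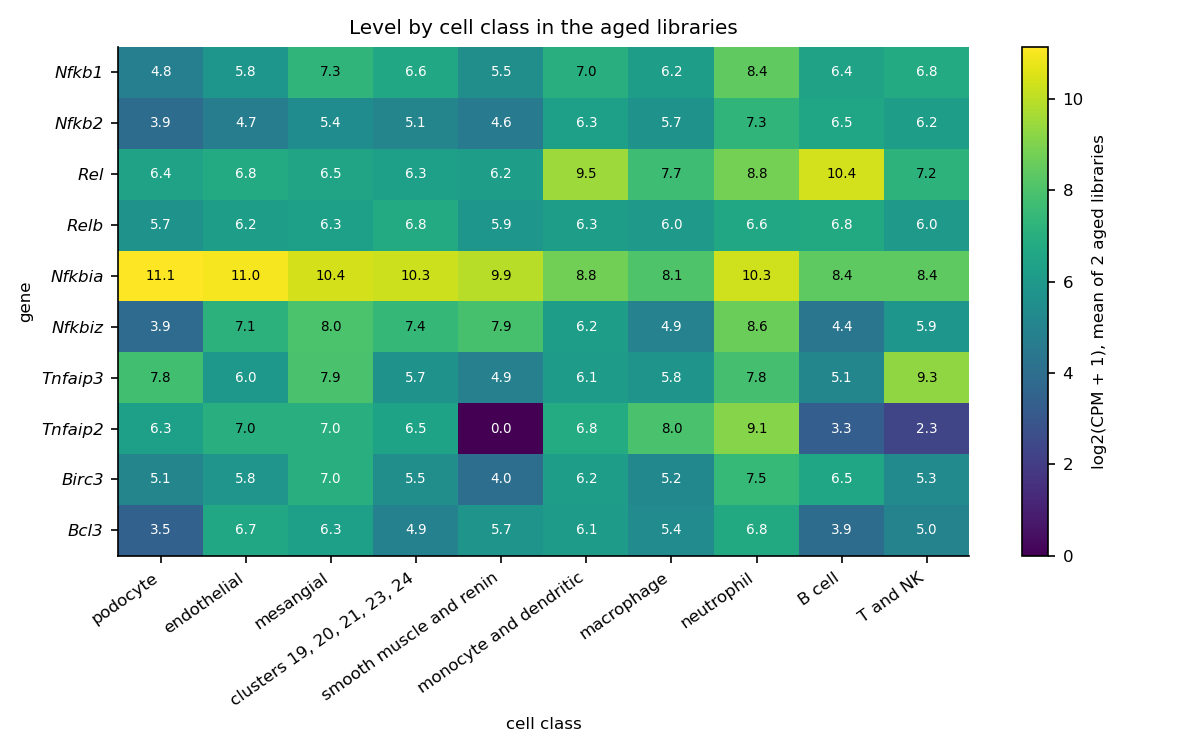
Mean plain CPM of the 2 aged libraries on a log2(CPM + 1) scale (colour and printed value) for each member (rows) in 10 cell classes (columns); rows are read across classes. Rel is highest in B cells at 10.4, Tnfaip3 in T and NK cells at 9.3, and Nfkbia in podocytes at 11.1.

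The members also differed in which cells carried them. In the aged libraries, Nfkbia was highest in podocytes (2249 ± 55.2 plain CPM, SD, n = 2), above endothelial cells (2040 ± 72.1) and then mesangial cells (1352 ± 331), and lowest in macrophages (268 ± 44.7); the podocyte and endothelial values did not overlap, and those of mesangial cells and neutrophils did. Rel, the subunit best known in lymphocytes, was highest in B cells (1312 ± 277), followed by monocytes and dendritic cells (731 ± 14.1), which did not overlap. Tnfaip3 was highest in T and NK cells (628 ± 14.9), above mesangial cells (243 ± 25.1), neutrophils (228 ± 118) and podocytes (216 ± 13.1), of which the last 3 overlapped as neighbours. Nfkb1 was highest in neutrophils (342 ± 280) and mesangial cells (155 ± 2.05), which overlapped, and lowest in podocytes (26.7 ± 0.19). Nfkbiz had its highest levels in neutrophils (398 ± 93.4) and mesangial cells (252 ± 9.55) and its lowest in podocytes (13.9 ± 2.83). Tnfaip2 was highest in neutrophils (559 ± 26.8) and macrophages (247 ± 33.7). Bcl3 was highest in neutrophils (109 ± 22.4) and endothelial cells (99.8 ± 10.2), which overlapped, and lowest in podocytes (10.1 ± 2.94), which overlapped with B cells (14.4 ± 10.3). Nfkb2 and Birc3 were highest in neutrophils (155 ± 73.9 and 176 ± 13.9), a class of only 22 to 62 aged cells. Relb varied least in order, with no 2 neighbouring classes separated.

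Macrophages held 581 and 504 aged but 3 and 13 young cells, so the members were not compared there. In the podocyte sums, the 12 macrophage and leukocyte genes summed to 8.87 and 34.8 plain CPM in young and 26.4 and 27.4 in aged libraries, against 48280 and 41140 in aged macrophages. In endothelial sums they came to 12.6 and 61.4 in young and 66.1 and 65.2 in aged libraries, where C1qc was at 0 in both young sums. In mesangial sums they came to 55.3 and 29.0 in young and 47.9 and 127 in aged libraries. Nfkbia was at 299.6 and 236 plain CPM in aged macrophages, below every podocyte and endothelial sum. Tnfaip3 was at 54.7 and 53.0 plain CPM in aged macrophages, below the aged podocyte sums. Other members called in podocytes ran the other way and were higher in aged macrophages than in aged podocytes: Rel (204 against 85.4 plain CPM, means of 2 libraries), Tnfaip2 (247 against 76.7) and Bcl3 (40.1 against 10.1). For Relb (74.7 and 51.2 against 52.5 and 47.4) and Birc3 (45.1 and 26.5 against 28.5 and 35.9) the libraries of the 2 classes overlapped. The part of macrophage RNA in the members' differences was not tested.

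Among 14 other subunits and inhibitors tested in podocytes, 3 rose and none fell: Zc3h12a, an RNase that degrades cytokine transcripts (log2 0.60), Cyld, a deubiquitinase that restrains the pathway (0.52), and Rela, the p65 subunit (0.49). Of all genes tested in podocytes, 3.90% rose. The list's median log2 fold change was 0.19, beside 0.003 over all genes. In endothelial and mesangial cells Tnip1, a partner of A20, was the 1 gene of this list that rose, of 16 and 15 tested. The shares of all genes that rose there were 3.80% and 4.24%, and the list's median log2 fold changes were 0.12 and 0.16. Tnip1 was at 29.3 and 32.1 CPM in young and 88.5 and 79.4 CPM in aged endothelial sums (log2 1.46 ± 0.15 SE, adjusted p = 1.2e-05). In mesangial sums it was at 20.8 and 18.0 CPM in young and 53.5 and 76.9 CPM in aged libraries (log2 1.74 ± 0.23 SE, adjusted p = 0.0019).

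Of the upstream receptors, adaptors and kinases, 3 of 19 rose in podocytes, 2 of 27 in endothelial cells and 5 of 27 in mesangial cells, and none fell. The shares of all genes that rose were 3.90%, 3.80% and 4.24%, and the list's median log2 fold changes were 0.02, 0.05 and 0.12. In podocytes these were Map3k14, the kinase NIK of the non-canonical branch, with 6.69 and 10.3 CPM in young and 29.3 and 22.1 CPM in aged sums (log2 1.69 ± 0.23 SE, adjusted p = 5.16e-06), and the adaptors Myd88 (log2 0.58) and Ripk1 (0.46). Endothelial cells showed Tnfrsf12a (0.60) and the TNF receptor gene Tnfrsf1b (2.24), the latter at 0.16 to 4.80 CPM. Mesangial cells showed the interleukin-1 receptor gene Il1r1, at 30.9 and 34.5 CPM in young and 88.6 and 61.8 CPM in aged sums (log2 1.21 ± 0.21 SE, adjusted p = 0.00844). Tlr2 (2.83), Ltb (4.36) and Il1b (4.31) passed there too from levels under 1 CPM in the young sums. These 3 reached the count filter only through their aged sums, so a rise was the only direction they could show. They are counted in the 5 of 27. In the same mesangial sums the leukocyte gene Cd52 was called higher (log2 2.23, adjusted p = 0.0449), and 5 neutrophil markers summed to 0 and 2.35 plain CPM in young and 63.9 and 1.43 in aged libraries. The part of leukocyte RNA in these 3 genes was not tested.

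Of the NF-kB target genes tested, 11 of 20 rose in endothelial cells, 10 of 17 in mesangial cells and 3 of 11 in podocytes, beside 3.80%, 4.24% and 3.90% of all genes. The list's median log2 fold changes were 1.03, 0.93 and 0.36. As the list was chosen with earlier results of these data known, these shares are descriptions. In endothelial cells Il6 was at 27.4 and 24.6 CPM in young and 142 and 174 CPM in aged sums (log2 2.60 ± 0.16 SE, adjusted p = 4.81e-08). The adhesion genes Vcam1 and Selp rose by 2.20 and 2.79 and the chemokine gene Cxcl2 by 1.99 on the log2 scale. Il6 and Selp are among the leading genes of the Sele and Il6 cluster, which held 117 and 95 young and 1332 and 895 aged cells. With that cluster left out, a choice made after seeing the data, 10 targets were called. In mesangial cells Ccl2, a monocyte chemoattractant, was at 16.8 and 18.8 CPM in young and 203 and 392 CPM in aged sums (log2 4.08 ± 0.32 SE, adjusted p = 5.14e-05). Ptgs2, which encodes cyclooxygenase-2, rose by 3.16, Vcam1 by 1.65 and Cxcl2 by 1.67 there, while Irf1, an interferon-response factor, fell by 0.82. In podocytes Gadd45b (log2 0.99), Ier3 (0.58) and Cxcl1 (0.76) rose. The podocyte sums thus had 7 of 10 members called but 3 of 11 targets, and the mesangial sums 4 of 10 members and 10 of 17 targets; the difference between these shares was not tested.

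Other groups moved alongside the members. Of all genes, 3.90% rose and 1.93% fell in podocytes, 4.24% and 2.44% in mesangial cells, and 3.80% and 1.93% in endothelial cells. Of 10 glucocorticoid-responsive genes, 6 rose and 1 (Errfi1) fell in podocytes, and their summed plain CPM was 2151 and 2341 in young and 7558 and 7824 in aged sums. In mesangial cells 5 of the 10 rose, with sums of 3202 and 2866 in young and 9151 and 7365 in aged libraries. In endothelial cells 4 of the 10 rose, with sums of 2652 and 2609 in young and 3941 and 3552 in aged libraries. Nfkbia is itself known as a glucocorticoid-responsive gene, and the part of these genes in the members' differences was not tested. Of 16 dissociation genes in podocytes, 4 rose and Dusp1 fell, and their summed level overlapped between young (44240 and 46300 plain CPM) and aged sums (43320 and 50040). In mesangial cells 5 dissociation genes fell and none rose, and the summed level was 39040 and 43600 in young and 30000 and 38160 in aged sums. In endothelial cells 2 rose, with sums of 29980 and 29590 in young and 31420 and 38150 in aged libraries; their part in the members' differences was not tested.

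Over the 16 sums of podocytes, endothelial cells, mesangial cells and clusters 19, 20, 21, 23 and 24 in 4 libraries, the genes whose log2 CPM was most like that of Nfkbia among 4218 compared were Jmjd1c (Pearson r = 0.79), Bhlhe40 (0.74) and P4ha2 (0.72). For Nfkb1 they were Ptp4a1 (0.92), Pfn1 (0.91) and Fem1b (0.90). These are descriptions over points that share libraries and cell classes.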

How the data were processed

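The deposited files hold raw UMI counts per gene and barcode for 4 libraries, which the authors made with Cell Ranger on GRCm38. The submitters' processing notes name version 6.0.1 and the labels' protocol names version 3.1.0. From these counts, barcodes with under 500 genes or over 20% mitochondrial UMIs were removed, doublets were removed with Scrublet at 0.8% per 1000 barcodes, and cells were clustered with scanpy 1.11.5 and leidenalg 0.10.2 (2000 variable genes, 30 components, resolution 1). Clusters were named by markers, and those carrying several classes' markers were left out. Clusters of low marker level and single cells carrying markers of an unrelated class were left out as well. UMIs were summed per class and library, filtered with filterByExpr and tested with edgeR 4.0.16 (TMM, quasi-likelihood, 2 against 2), with Benjamini-Hochberg adjustment over all genes of a class. Each printed SE is the absolute log2 value divided by the square root of edgeR's F statistic. It was back-calculated from the test and not estimated separately. Classes with under 20 cells in any library were not tested, but the tests of single mesangial clusters took in libraries under that number. A model with library as block tested class by age terms. DESeq2 1.42.0 was an alternative. In data simulated with a fixed spread, which was not that of the real libraries, the fits recovered 21% (B cells) to 64% (endothelial cells) of 2-fold changes. Of 4-fold changes they recovered 79% (B cells) to 93% (podocytes). Gene positions and RefSeq promoters are on GRCm38. Named were all 10 members, up to 4 called genes per list, direction and class with the smallest p, and the 3 genes most like Nfkbia and Nfkb1. The members and lists were chosen with earlier results of these data known.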

Additional observations from a re-analysis of the deposited data

Results flagged for a closer look

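The age difference of 5 members differed between glomerular cell classes by the test of the difference itself (edgeR, adjusted p under 0.05 over all genes). Values are differences of log2 fold changes. Tnfaip3 differed by -1.98 between endothelial cells and podocytes (endothelial minus podocyte) and by -1.36 between mesangial cells and podocytes (mesangial minus podocyte). Nfkb1 differed by 1.74 for mesangial minus podocyte and by 1.31 for mesangial minus endothelial. For mesangial minus podocyte, Nfkbia differed by -0.94 and Birc3 by -1.02. Tnfaip2 differed by 1.02 for mesangial minus endothelial. The mesangial values compare sums drawn largely from cluster 14 in young and cluster 9 in aged libraries.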

How the results depend on the processing

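The 7 members called in podocytes were 2 with mixed cells kept and 4 with cells named one by one, and ranged from 4 to 7 when 1 library was left out. The 3 in endothelial cells were 0 without the low count filter, where no gene at all was called, and 0 to 2 with 1 library left out. The 4 in mesangial cells ranged from 1 to 6 with 1 library left out, and were 0 in cluster 9 only. The number called was 1 in cluster 14 only: Nfkbiz, which is not among the 4 and fell (log2 -1.25). None of the 4 was called there, and the log2 change of Tnfaip3 was -0.62. The 1 in clusters 19, 20, 21, 23 and 24 was 0 with DESeq2, with doublets kept, with mixed cells kept and with cells named one by one, and 0 to 2 with 1 library left out. The 0 in other classes were 1 without the low count filter and 1 with cells named one by one, and 0 to 1 with 1 library left out. The 5 whose age difference depended on class were 0 with mixed cells kept and 2 with cells named one by one, and 2 to 7 with 1 library left out. The cause was not tested.

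Libraries of the same number share that number in their titles. Their deviations from the group mean correlated between -0.07 and 0.14 over classes. With 2 libraries per group, this cannot decide whether they also shared a preparation or run. With the replicate block, 5 members were called in endothelial cells, 7 in mesangial cells and 2 in clusters 19, 20, 21, 23 and 24; podocytes stayed at 7.

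All genes called numbered 634 in podocytes (257 with DESeq2, 84 with mixed cells kept, 282 with cells named one by one, 300 to 1125 with 1 library left out) and 753 in endothelial cells (1384 with the block, 0 to 760 with 1 library left out). In mesangial cells they numbered 742 (436 with DESeq2, 1353 without the filter, 1735 with the block, 77 in cluster 14 only, 1 in cluster 9 only, 58 to 1776 with 1 library left out), and in clusters 19, 20, 21, 23 and 24 they numbered 256 (66 with DESeq2, 136 with doublets kept, 117 with cells named one by one). Of 194 alternatives to the 15 called member results, 143 kept the call and direction, 50 kept the direction only and 1 reversed.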
